A study of Mus musculus with 10 samples.

Results

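The genes of Polycomb repressive complex 2 (PRC2) that work with the methyltransferase EZH2 were followed in germinal center B cells with and without the zinc finger protein ZBTB38. The members were chosen by gene symbol as the core and accessory subunits of the complex, which gave 10 of the 22380 genes quantified. They are Ezh2, Ezh1, Eed, Suz12, Rbbp4, Rbbp7, Jarid2, Mtf2, Phf19 and Aebp2, and each was found under a single gene identifier. PRC2 places methyl groups on a lysine of histone H3 (the H3K27 mark) and so helps to keep genes silent. EZH2 or its paralog EZH1 carries the enzyme activity, EED binds the mark, SUZ12 holds the core together, and RBBP4 or RBBP7 grips the histone. Accessory subunits guide the complex to chromatin. MTF2 and PHF19 belong to the Polycomb-like forms of PRC2, and JARID2 and AEBP2 to another form. Germinal center B cells divide rapidly after immunization, and mice that lack EZH2 in B cells do not form normal germinal centers.

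Antigen-specific germinal center B cells (GL7+IgD−, binding the hapten NP) were sorted from mice immunized with NP-OVA in alhydrogel 2 weeks earlier, and their RNA was sequenced. The 2 WT mice were Zbtb38fl/fl without Cre, the 2 HET mice were Zbtb38fl/+ x Vav-Cre and the 6 KO mice were Zbtb38fl/fl x Vav-Cre, with strain C57Bl6/N given for each of them. The age of the mice was not given in the sources used here. The floxed exon holds the coding sequence of Zbtb38, the allele goes back to a single founder, and Vav-Cre acts mainly in blood cells of every lineage, not only in B cells. WT mice carry no Cre, so that Cre and the loss of Zbtb38 cannot be told apart in a comparison with WT. Estimated counts summed to 41059082 and 27462439 in the WT libraries, 32191770 and 28412924 in the HET libraries, and between 26612431 and 33894832 in the KO libraries.

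Zbtb38 itself was at 162 and 152 CPM (counts scaled to a common library total, normalized with the TMM method) in WT, at 117 and 106 CPM in HET, and at 18.6 to 50.3 CPM with a median of 30.3 in KO. Every KO library lay below every WT and HET library. In TPM (a level per transcript length, scaled to a common total) the difference was smaller, with Zbtb38 at 63.5 and 63.3 TPM in WT, 49.6 TPM in both HET libraries and 17.5 to 46.1 TPM in KO. The highest KO value was that of KO replicate 2, and the other KO libraries lay at 17.5 to 23.7 TPM. These levels are summed over the whole gene, so they do not separate reads of the floxed exon from other reads. The paper reports that reads within this exon were entirely lost in KO and intermediate in HET. The log2 fold change of KO over WT was -2.31 (SE 0.274, edgeR adjusted p = 0.0734), and that of KO over WT and HET together was -2.08 (SE 0.232, edgeR adjusted p = 0.0104). Here and below, p comes from a quasi-likelihood F statistic in edgeR, is adjusted by the Benjamini-Hochberg rule over all genes tested, and counts as passing under 0.1. Zbtb38 did not pass in KO against HET (log2 fold change -1.82, SE 0.261, edgeR adjusted p = 0.128). Its call in KO against WT was not robust: leaving out any 1 of 6 of the 8 libraries, or limma on log2(TPM + 1), left 0 genes called. With length-scaled counts the only gene called was higher in KO, so it was not Zbtb38. Against both controls, 1 to 2 genes were called with a single library left out, but 0 genes by limma on either TPM scale, with length-scaled counts or with a replicate block.

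Some libraries stood apart for reasons that the genotype does not define. KO replicate 6 had a median correlation of 0.954 with the other libraries, against 0.971 to 0.983 for the remaining 9. In CPM it was also the lowest library for 4 members, Eed, Mtf2, Phf19 and Aebp2. The KO comparisons printed for these 4 are thus given with and without it. In TPM it was the lowest for these and also for Rbbp4 (159 TPM) and Jarid2 (8.41 TPM). Transcripts of the 4 Y-linked genes Uty, Ddx3y, Eif2s3y and Kdm5d summed to 109.8 and 156 TPM in WT, to 0.640 and 0.487 TPM in HET and to 88.8, 145 and 129 TPM in KO replicates 1, 2 and 5. In KO replicates 3, 4 and 6 the sum was 0.917, 1.77 and 1.44 TPM. WT and HET were thus fully split by the level of Y-linked transcripts, and in HET against WT the genotype cannot be told apart from what goes with them.

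Markers of the sorted cells were abundant in each library. The 10 germinal center B cell genes summed to 4606 to 5995 TPM, with Cd79a, a part of the B cell receptor, the most abundant at a mean of 2216 TPM, and each of the 10 was above 1 TPM in every library. Markers of T cells, myeloid cells, naive B cells, plasma cells and erythroid cells summed to more in WT than in HET. The 8 T cell genes summed to 91.7 and 88.8 TPM in WT, 17.1 and 25.2 TPM in HET and 25.0 to 57.0 TPM in KO, with Cd3g the most abundant at a mean of 11.3 TPM. The 6 myeloid genes summed to 555 and 475 TPM in WT, 77.3 and 64.3 TPM in HET and 60.5 to 825 TPM in KO, led by the lysozyme gene Lyz2 with a mean of 197 TPM. The 6 naive B cell genes summed to 624 and 743 TPM in WT, 298 and 345 TPM in HET and 348 to 790.5 TPM in KO, with Fcer2a the most abundant at a mean of 203 TPM. The 6 plasma cell genes, led by the joining chain gene Jchain at a mean of 1230.1 TPM, summed to 1657 and 1474 TPM in WT, 1321 and 1268 TPM in HET and 1289 to 1696 TPM in KO, and the 5 erythroid genes, led by Hbb-bt at 118 TPM, to 133 and 187 TPM in WT, 114 and 104 TPM in HET and 176 to 257 TPM in KO. None of these marker genes was at 0 in all 10 libraries. In bulk samples such as these, fewer cells of a type and less RNA per cell cannot be told apart.

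Of these marker genes, 0 passed in edgeR or limma in any comparison, and at an unadjusted edgeR p under 0.05 there were, for KO against HET, 5 of 6 naive B cell, 1 of 6 plasma cell, 4 of 8 T cell, 3 of 6 myeloid, 3 of 5 erythroid and 4 of 4 Y-linked genes, all higher in KO. For HET against WT the numbers were 4, 1, 5, 5, 3 and 4, all lower in HET. DESeq2 called 4, 1, 1, 1, 3 and 4 of them in KO against HET and 2, 0, 3, 1, 2 and 4 in HET against WT. Of all genes tested in these 2 comparisons, 10.2% and 6.42% had an unadjusted edgeR p under 0.05, and DESeq2 called 3.19% and 0.857%. For KO against WT, only 3 T cell genes had an unadjusted p under 0.05, all lower in KO, beside 2.19% of all genes tested. For KO against both controls only 3 erythroid genes did, all higher, beside 6.30%. In the order KO against WT, KO against both controls, KO against HET and HET against WT, median log2 fold changes were 0.17, 0.07, -0.08 and 0.27 for germinal center B cell genes, with 0 at an unadjusted p under 0.05. They were -0.18, 0.38, 1.27 and -1.65 for naive B cell, 0.09, 0.47, 0.82 and -0.71 for plasma cell and -0.89, -0.25, 1.13 and -1.91 for T cell genes. Myeloid genes gave -0.71, -0.08, 1.48 and -2.02, erythroid genes 0.95, 1.49, 3.11 and -2.33, and Y-linked genes -1.12, -0.17, 7.11 and -8.50.

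All 10 members passed the filter on low counts in each comparison. The order of their levels, given per length, ran from Rbbp7 with a mean of 461 TPM over the 10 libraries to Jarid2 with 13.4 TPM. Mtf2 (308 TPM), Rbbp4 (207 TPM), Eed (161 TPM) and Ezh2 (127 TPM) followed Rbbp7, and each was above its next lower neighbour in at least 9 of 10 libraries although the ranges of Rbbp7, Mtf2, Rbbp4, Eed and Ezh2 overlapped from one to the next. Ezh2 was separated from Phf19 (58.3 TPM), and Suz12 (46.4 TPM) from Aebp2 (17.0 TPM), without overlap in any library. Among the lowest members, Aebp2, Ezh1 (15.1 TPM) and Jarid2, neighbours in the order did not differ in level beyond their spread. Aebp2 was above Ezh1 in 7 libraries and Ezh1 above Jarid2 in 6, and Aebp2 was not compared with Jarid2 in this way. The mean TPM of Ezh2 stood at percentile 89.9 of the 14354 genes tested over the 10 libraries, that of Ezh1 at percentile 54.7 and that of Jarid2 at percentile 52.5.

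**Figure D1:**
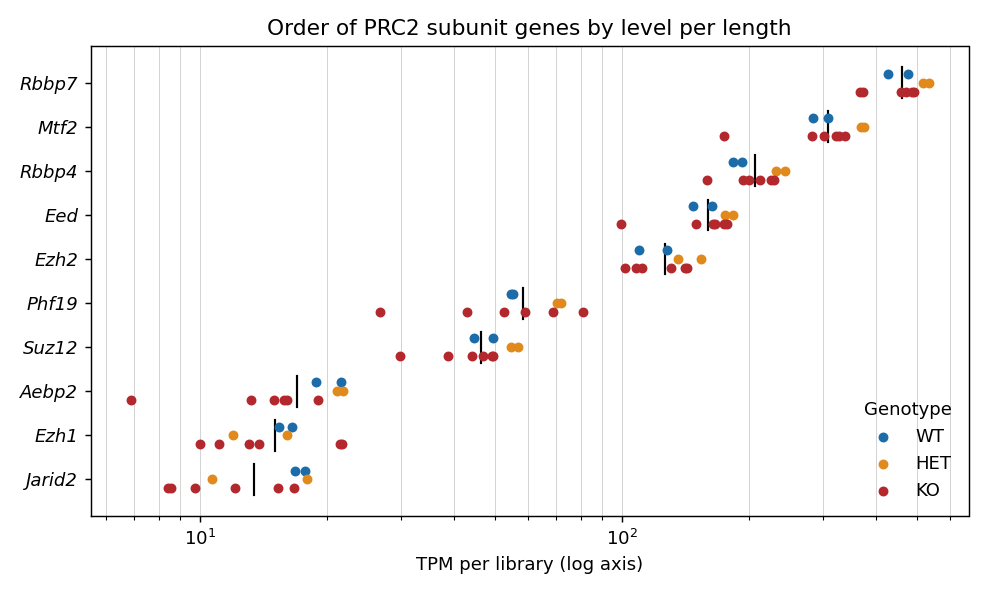
Level of each PRC2 subunit gene in TPM on a log axis, with a point per library coloured by genotype (2 WT, 2 HET and 6 KO) and a black bar at the mean of the 10 libraries. Rbbp7 leads with a mean of 461 TPM, Ezh2 has 127 TPM, and Aebp2, Ezh1 and Jarid2 share the bottom with 17.0, 15.1 and 13.4 TPM.

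The first question was whether loss of Zbtb38 went with another level of any PRC2 subunit. Between KO and WT, 0 of the 10 members had an edgeR adjusted p under 0.1, beside 0.00704% of the 14203 genes tested, a share that stands for 1 gene, Zbtb38. At an unadjusted p under 0.05 there was 1 member, Jarid2, beside 2.19% of all genes tested. With WT and HET as a control group of 4, again 0 members passed, beside 0.00749% of 13347 genes, and 0 had an unadjusted p under 0.05, beside 6.30%. DESeq2 called 0 members in each of these comparisons, beside 0.0422% and 0.135% of all genes tested, and limma on log2(TPM + 1) called 0 members, beside 0% in both. The median log2 fold change of the members was 0.03 for KO against WT and -0.11 for KO against both controls, while that of all genes tested was 0.01 and 0.02.

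The second question concerned HET, where Vav-Cre is present and a Zbtb38 allele remains. Between KO and HET, 0 members passed in edgeR, DESeq2 or limma, beside 0.00697%, 3.19% and 0.00697% of the 14354 genes tested in these tools, and 1 member, Suz12, had an unadjusted p under 0.05, beside 10.2%. Between HET and WT, 0 members passed in the 3 tools, beside 0.00697%, 0.857% and 0.00697% in the same order, and 0 had an unadjusted p under 0.05, beside 6.42%. The gene behind the edgeR share of 0.00697% was Hnrnpll in both comparisons (edgeR adjusted p = 0.0496 and 0.0395), named after its values were seen. The median log2 fold change of the members was -0.17 for KO against HET, beside 0.07 for all genes tested, and 0.27 for HET against WT, beside -0.01. For 7 of the 10 members both HET libraries lay above both WT libraries, a pattern shown by 23.5% of the genes tested. The comparisons share libraries with each other, so their values stand side by side and are not independent. With 2 libraries in a group, the spread behind each test comes mainly from the KO libraries.

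**Figure D2:**
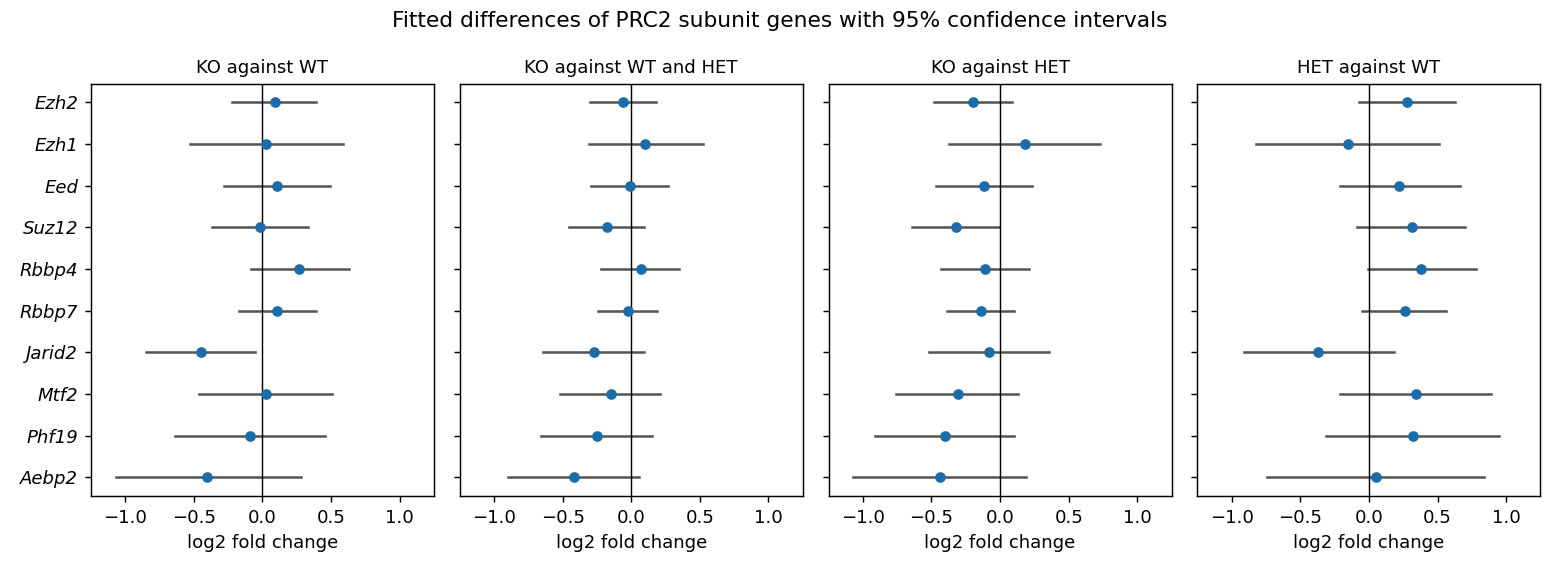
Log2 fold change of each PRC2 subunit gene in the 4 comparisons (x axis, first group over second), with the point at the edgeR estimate and the line its 95% confidence interval. The intervals of Jarid2 in KO against WT (-0.85 to -0.05) and of Suz12 in KO against HET (-0.64 to -0.01) leave out 0, and neither gene passed adjustment over all genes tested.

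Ezh2 (ENSMUSG00000029687.16, chromosome 6 from 47530139 to 47595341 on the minus strand, GRCm38), the catalytic subunit of dividing cells, was at 199 and 161 CPM in WT and at 204 and 234 CPM in HET. In KO it ranged from 178 to 222 CPM with a median of 187. The KO libraries spread across the WT values, and only KO replicate 5, the highest, lay above both WT libraries. Its log2 fold change was 0.09 for KO over WT (SE 0.138, 95% interval -0.22 to 0.39, edgeR adjusted p = 0.999), 0.28 for HET over WT (SE 0.161, edgeR adjusted p = 0.816) and -0.20 for KO over HET (SE 0.130, edgeR adjusted p = 0.616). None of these exceeded the spread between mice, and leaving out single libraries moved HET over WT between 0.14 and 0.44 and KO over HET between -0.29 and -0.10. Ezh2 rested on 4667 to 8269 counts per library, so counting error was a small part of that spread.

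Ezh1 (ENSMUSG00000006920.14, chromosome 11 from 101191115 to 101226463 on the minus strand), the paralog that is more typical of resting cells, was at 43.7 and 46.4 CPM in WT and 34.9 and 46.1 CPM in HET. In KO it ranged from 31.7 to 58.5 CPM with a median of 46.8. The KO libraries fell on both sides of WT, 3 above and 2 below both WT libraries, and the log2 fold change was 0.03 (SE 0.253, 95% interval -0.53 to 0.59, edgeR adjusted p = 0.999). In TPM, Ezh2 exceeded Ezh1 by a ratio of 8.32 and 6.69 in WT, 11.3 and 9.56 in HET and 6.11 to 12.9 in KO (median 7.77). Both HET ratios lay above both WT ratios, and the KO range covered all 4 of them. The coding sequences of the most abundant full-length transcripts of the pair were identical at 64.3% of aligned bases, with no identical run longer than 17 bases, and the counts of both genes were whole numbers in 10 of 10 libraries (tolerance 0.0001), as when no read is divided with another gene.

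The transcripts of Ezh1 were divided in different ways across libraries. ENSMUST00000107284.7 took 44.9% and 65.3% of the TPM of Ezh1 in WT, 1.67% and 1.71% in HET, and 0.591% to 33.5% in KO. Its near twin ENSMUST00000107285.7 took 40.5% and 26.0% in WT, 82.8% and 87.7% in HET, and 36.8% to 80.9% in KO. The shares of WT lay outside those of HET and KO for the first transcript. In the reference sequences, however, the pair share every internal exon of 21, and ENSMUST00000107284.7 differs only by 13 more bases at its 5′ end (first exon 101226396 to 101226463 against 101226396 to 101226450) and 1 more base at its 3′ end. Any division of reads between the pair rests on these terminal bases, and the summed level of Ezh1 does not depend on it. With ENSMUST00000081721.12 over ENSMUST00000107285.7, the transcripts with the highest mean over all libraries, the ratio of Ezh2 to Ezh1 averaged 11.5 in WT and 5.80 in HET, the opposite order to the summed TPM. In WT this leaves out ENSMUST00000107284.7, the more abundant of the Ezh1 pair there. The opposite order thus rests on how reads were divided within the pair, which does not enter the summed level. By CPM the ratio averaged 4.01 in WT and 5.46 in HET, the same order as by summed TPM.

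Ezh2 was divided more evenly from library to library. ENSMUST00000081721.12, which holds 2241 coding bases in 20 exons, took 42.7% to 50.2% of its TPM. ENSMUST00000092648.12, listed without untranslated sequence, took 23.9% to 36.8%. A transcript with an incomplete annotated end, ENSMUST00000133043.2, took 8.13% to 16.0%.

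Eed (ENSMUSG00000030619.9, chromosome 7 from 89954654 to 89980983 on the minus strand), which reads the methyl mark and stimulates the enzyme, was at 200.4 and 174 CPM in WT and 217 and 220.1 CPM in HET. In KO it ranged from 146 to 234 CPM with a median of 206, and the lowest value was that of KO replicate 6. The log2 fold change of KO over WT was 0.11 with this library (SE 0.173, edgeR adjusted p = 0.999) and 0.19 without it (SE 0.130, edgeR adjusted p = 0.984). KO over HET was -0.12 (SE 0.160, edgeR adjusted p = 0.826) with it and -0.04 (SE 0.115, edgeR adjusted p = 0.917) without it. HET lay above WT in both libraries (log2 fold change 0.22, SE 0.198, edgeR adjusted p = 0.934). With any single library left out, KO over WT lay between 0.01 and 0.21 and HET over WT between 0.13 and 0.33. The full-length transcript ENSMUST00000107234.2 took 81.1% to 88.0% of the TPM of Eed.

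Suz12 (ENSMUSG00000017548.15, chromosome 11 from 79993106 to 80034123 on the plus strand), the scaffold that joins the enzyme to the accessory subunits, was at 149 and 125 CPM in WT and 167 and 171 CPM in HET. In KO it ranged from 112 to 158 CPM with a median of 136. In CPM, every KO library lay below both HET libraries, as for 4 of the 10 members (Suz12, Mtf2, Phf19 and Aebp2) and 8.12% of all genes tested, while KO and WT overlapped. KO over HET gave a log2 fold change of -0.32 (SE 0.146, 95% interval -0.64 to -0.01, edgeR adjusted p = 0.488). Without KO replicate 6 it was -0.29 (edgeR adjusted p = 0.485), and among the libraries with Ddx3y under 5 CPM, HET and KO replicates 3, 4 and 6, it was -0.35 (edgeR adjusted p = 0.485), a choice made after seeing the data. KO over WT was -0.02 (SE 0.158, 95% interval -0.37 to 0.33).

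The histone-binding proteins RBBP4 and RBBP7 are also part of other chromatin complexes, among them histone deacetylase and chromatin assembly complexes. Rbbp4 (ENSMUSG00000057236.10, chromosome 4 from 129307100 to 129335370 on the minus strand) was at 582 and 538 CPM in WT and 724 and 737 CPM in HET, and ranged from 557 to 797 CPM in KO with a median of 699.8. Of the 6 KO libraries, 4 lay above both WT libraries and the others did not. The log2 fold change was 0.38 for HET over WT (SE 0.179, 95% interval -0.01 to 0.78, edgeR adjusted p = 0.781) and 0.27 for KO over WT (SE 0.160, edgeR adjusted p = 0.999). Fitted on the 2 HET and 2 WT libraries alone, the value for HET over WT was 0.37 with an edgeR adjusted p of 0.0911, the only time a member passed the threshold. The adjusted p of this result ran from 0.0911 to 1 over its alternatives, and that fit called 523 genes in all.

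Rbbp7 (ENSMUSG00000031353.13, chromosome X from 162760402 to 162779092 on the plus strand) varied least, by a factor of 1.28 between its lowest and highest library. It was at 596 and 529 CPM in WT, 678 and 666 CPM in HET, and 548 to 667 CPM in KO with a median of 597. Its log2 fold changes were 0.11 for KO over WT (SE 0.127) and 0.26 for HET over WT (SE 0.140, edgeR adjusted p = 0.808). With any single library left out, KO over WT lay between 0.03 and 0.20 and HET over WT between 0.17 and 0.35. In TPM, Rbbp4 stood at 0.404 and 0.430 of Rbbp7 in WT, 0.449 and 0.457 in HET and 0.411 to 0.545 in KO. The coding sequences of the pair, 1278 bases each, were identical at 78.0% of aligned bases, and their longest identical run was 20 bases. Neither gene had whole counts in any library, so some of their reads were divided with transcripts of other genes and their levels are less certain.

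**Figure D3:**
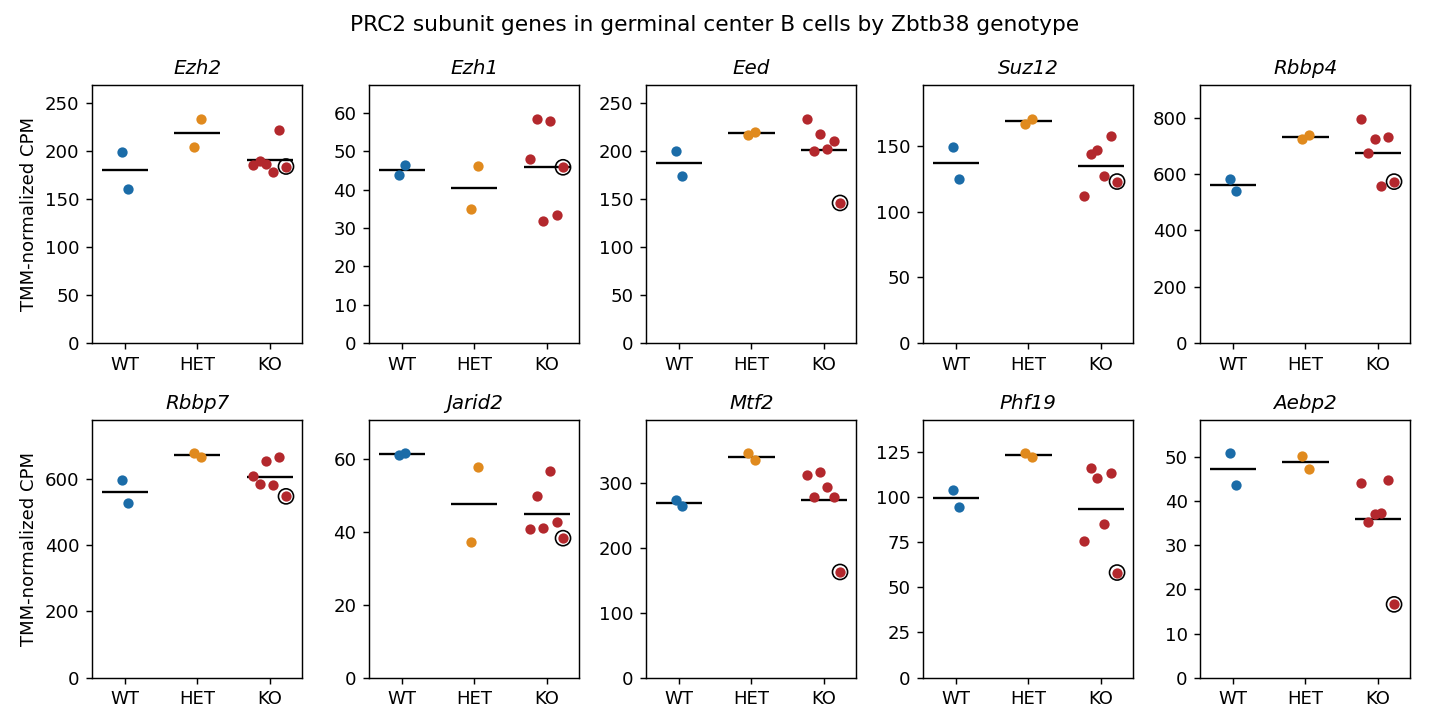
TMM-normalized CPM of each PRC2 subunit gene by Zbtb38 genotype, with a point per mouse, a black bar at the group mean and an open circle around KO replicate 6. Aebp2 of this library is at 16.6 CPM and the other KO libraries are at 35.3 to 44.8 CPM, and Jarid2 is below both WT libraries in all 6 KO libraries.

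Of the Polycomb-like subunits, which bind DNA rich in CpG, Mtf2 (ENSMUSG00000029267.17, chromosome 5 from 108065674 to 108109004 on the plus strand) was at 274 and 264 CPM in WT, 346 and 335 CPM in HET and 163 to 317 CPM in KO with a median of 286. KO replicate 6 was at 163 CPM, and the other 5 lay at 278 to 317 CPM, above both WT and below both HET libraries in CPM. This order leaves out a library after its value was seen, and the share of all genes that show it was not counted. In TPM it did not hold against WT (309 and 284 TPM), with KO replicate 1 at 283 TPM and KO replicate 5 at 301 TPM. The log2 fold change of KO over WT was 0.03 with KO replicate 6 (SE 0.220, edgeR adjusted p = 0.999) and 0.14 without it (SE 0.123, edgeR adjusted p = 0.984). KO over HET moved from -0.31 (SE 0.203, edgeR adjusted p = 0.608) to -0.20 (SE 0.108, edgeR adjusted p = 0.514). Of the TPM of Mtf2, 48.6% to 55.7% fell on ENSMUST00000137996.7, a fragment of 718 bases and 8 exons whose annotation is incomplete at both ends, and 6.94% to 13.5% on ENSMUST00000081567.10, which holds 1782 coding bases. The high rank of Mtf2 per length thus leans on a short transcript: its mean CPM was below that of Rbbp4 and Rbbp7 in each genotype. Counts of Mtf2 were whole in 4 of 10 libraries, so in the others a part of its reads was divided with another gene.

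Phf19 (ENSMUSG00000026873.9, chromosome 2 from 34893757 to 34914026 on the minus strand) was at 104 and 94.1 CPM in WT, 124 and 122 CPM in HET and 58.1 to 116 CPM in KO with a median of 97.5. The KO libraries spread widely, 3 above and 3 below both WT libraries, and each lay below both HET libraries in CPM. In TPM this did not hold, since KO replicate 2 had the highest Phf19 of all libraries at 81.0 TPM, above HET at 70.1 and 71.7 TPM. Its log2 fold change was -0.09 for KO over WT (SE 0.248, edgeR adjusted p = 0.999) and -0.40 for KO over HET (SE 0.230, edgeR adjusted p = 0.564). Without KO replicate 6 these were 0.02 and -0.30 (SE 0.190 and 0.174). A fragment of 351 bases, ENSMUST00000202907.1, took 27.5% to 49.3% of the TPM of Phf19, and ENSMUST00000028232.6, with 1737 coding bases, took the rest.

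Jarid2 (ENSMUSG00000038518.15, chromosome 13 from 44729474 to 44921643 on the plus strand) encodes a relative of the Jumonji demethylases that lacks their activity and helps to recruit PRC2. It was at 61.1 and 61.6 CPM in WT and 37.3 and 57.8 CPM in HET, and ranged from 38.3 to 56.8 CPM in KO with a median of 41.9. In CPM, all 6 KO and both HET libraries lay below both WT libraries, and Jarid2 was the only 1 of the 10 members with the KO libraries below WT in this way, a pattern shown by 3.91% of the genes tested. In TPM the KO libraries (8.41 to 16.7 TPM) were again below WT (17.8 and 16.8 TPM), but HET replicate 2 had the highest Jarid2 of all libraries at 18.0 TPM, with HET replicate 1 at 10.7 TPM. The log2 fold change of KO over WT was -0.45 (SE 0.180, 95% interval -0.85 to -0.05, edgeR adjusted p = 0.999). It was -0.41 without KO replicate 6 (edgeR adjusted p = 0.984) and -0.46 among the libraries with Ddx3y above 5 CPM, WT and KO replicates 1, 2 and 5 (edgeR adjusted p = 0.947), a choice made after seeing the data. HET over WT was -0.37 (SE 0.250, edgeR adjusted p = 0.863), with HET replicate 1 below every KO library and HET replicate 2 above every KO library in CPM. Leaving out single libraries moved this value between -0.72 and -0.08. Counts of Jarid2 were whole in 0 of 10 libraries, so that a part of its reads was divided with another gene. Those of Zbtb38 were also whole in 0 of 10 libraries.

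Aebp2 (ENSMUSG00000030232.18, chromosome 6 from 140622663 to 140678472 on the plus strand), a zinc finger protein that stabilizes the complex, was at 50.8 and 43.6 CPM in WT, 50.2 and 47.3 CPM in HET and 16.6 to 44.8 CPM in KO with a median of 37.2. Of the KO libraries, 4 lay below all 4 control libraries and the others overlapped with WT replicate 2. Against both controls together its log2 fold change was -0.42 (SE 0.222, 95% interval -0.90 to 0.06, edgeR adjusted p = 0.744). Without KO replicate 6, at 16.6 CPM the lowest library, it was -0.28 with a smaller error (SE 0.119, edgeR adjusted p = 0.818). KO over WT moved likewise from -0.40 (SE 0.305) to -0.25 (SE 0.164), and KO over HET from -0.44 (SE 0.288, edgeR adjusted p = 0.61) to -0.29 (SE 0.153, edgeR adjusted p = 0.505). The factor of 3.06 between the highest and lowest library of Aebp2 rests on KO replicate 6, and the other 9 libraries lay between 35.3 and 50.8 CPM.

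The pattern of Ezh2 over the 10 libraries was set beside that of each other gene tested, with Pearson's r of log2(CPM + 1) as the measure and as a description only. The 6 nearest genes were Atf1 (r = 0.923), Fkbp4 (r = 0.914), Cdk2 (r = 0.910), Ctc1 (r = 0.905), E2f8 (r = 0.904) and Ncapg (r = 0.903), over n = 10 libraries. They were picked as the highest among 14354 genes tested, and the r that such a pick gives by chance was not computed. Without KO replicate 6 their r lay between 0.902 and 0.933 over n = 9 libraries. Each of these 6 genes was highest in HET replicate 2, the library that was also highest for Ezh2, and 5 of them were lowest in WT replicate 2, as Ezh2 was. Such shared extremes follow in part from the pick by r over these same libraries. Among the members, Rbbp7 (r = 0.80), Suz12 (r = 0.78) and Rbbp4 (r = 0.61) lay nearest to Ezh2, and Ezh1 (r = -0.36) and Jarid2 (r = -0.13) farthest. The points come from the same libraries, so differences in depth and cell makeup between them enter each r.

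Genes of cell division were set beside the members. All 18 genes of the cell cycle and E2F list were higher in HET than in WT by their estimates, with 0.32 as the median log2 fold change, and 0 of the 18 passed in edgeR, DESeq2 or limma, with 3 at an unadjusted edgeR p under 0.05. Of all genes tested, 48.7% were higher in HET and 6.42% had an unadjusted p under 0.05. KO against HET gave a median of -0.28 with 17 of 18 lower, where edgeR called 0, with 6 at an unadjusted p under 0.05, and DESeq2 called 1, Top2a. Among all genes tested there, 56.3% were higher in KO, 10.2% had an unadjusted p under 0.05 and DESeq2 called 3.19%. The medians were 0.03 for KO against WT and -0.16 for KO against both controls, with 0 called and 1 at an unadjusted p under 0.05 in each. The shares of all genes at that p were 2.19% and 6.30%. Summed, the list was at 3612 and 3223 TPM in WT, 4094 and 4260.1 TPM in HET and 2576 to 3965 TPM in KO, with Pcna, the sliding clamp of replication, the most abundant at a mean of 454 TPM. Beside 7 members above WT in both libraries, none of which passed in the fit over all 10 libraries, HET thus had higher summed cell cycle transcripts, lower summed T cell, myeloid, naive B cell, plasma cell and erythroid markers and Y-linked transcripts under 1 TPM in sum. The part of each in the levels of the members was not tested. KO replicate 6 had the lowest cell cycle sum (2576 TPM) and the highest naive B cell sum (790.5 TPM) of all libraries. KO replicate 1 was close in the cell cycle sum (2613 TPM) and KO replicate 4 in the naive B cell sum (775 TPM). In these libraries, in that order, Eed was at 234 and 202 CPM and Mtf2 at 313 and 294 CPM. Phf19 was at 75.7 and 84.9 CPM and Aebp2 at 44.0 and 37.4 CPM. The part of such sums in the low Eed, Mtf2, Phf19 and Aebp2 of KO replicate 6 was not tested either.

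Promoters of the members were read for letters that resemble the binding site of E2F factors, which drive genes of cell division. The RefSeq promoter set (GRCm38.p6, 250 bases before to 50 after a start) held 14 entries for the 10 members. On both strands, TTTGGCGC was found in 0.514% of the 32851 promoters, TTTCCCGC in 1.07%, TTTCGCGC in 0.323% and TTTGCCGC in 0.441%, and any of the 4 in 2.26%. A match was found for 3 members, Ezh2, Suz12 and Phf19, with 1 each, and these are shown with the match in capitals. Ezh2 (chr6:47594981-47595280, minus strand) holds TTTGGCGC just past its start, at 47595020 to 47595027. Suz12 (chr11:79992856-79993155, plus strand) holds TTTCCCGC 219 bases before its start. Phf19 (chr2:34913927-34914226, minus strand) holds the same letters on the opposite strand, 208 bases before its start. The sequences run 5′ to 3′ in the direction of each gene.
Ezh2: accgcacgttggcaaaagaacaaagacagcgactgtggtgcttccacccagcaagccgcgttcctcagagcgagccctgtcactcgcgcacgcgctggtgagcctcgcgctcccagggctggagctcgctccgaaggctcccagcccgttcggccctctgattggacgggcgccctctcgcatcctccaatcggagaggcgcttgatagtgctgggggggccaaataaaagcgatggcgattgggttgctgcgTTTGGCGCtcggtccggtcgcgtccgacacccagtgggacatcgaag
Suz12: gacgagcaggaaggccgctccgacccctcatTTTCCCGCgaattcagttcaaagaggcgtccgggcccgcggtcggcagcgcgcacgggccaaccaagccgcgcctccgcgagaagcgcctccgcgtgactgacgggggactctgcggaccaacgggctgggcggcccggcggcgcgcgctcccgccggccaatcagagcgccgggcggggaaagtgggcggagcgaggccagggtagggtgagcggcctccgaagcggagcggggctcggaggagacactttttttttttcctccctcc
Phf19: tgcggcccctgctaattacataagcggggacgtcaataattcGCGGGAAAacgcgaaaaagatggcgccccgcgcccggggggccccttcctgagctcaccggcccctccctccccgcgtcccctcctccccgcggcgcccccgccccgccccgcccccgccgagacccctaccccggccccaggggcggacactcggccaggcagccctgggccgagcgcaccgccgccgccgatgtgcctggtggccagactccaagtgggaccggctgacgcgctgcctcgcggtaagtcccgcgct
These matches describe letters and not binding, which was not measured. The number of CpG pairs in the 14 entries ran from 2 to 41, with 31 in that of Ezh2, 41 in that of Suz12 and 38 in that of Phf19, beside a median of 7 over all promoters. Each of the 4 motifs holds CpG, and 43.5% of all promoters had at least 10 CpG pairs. The shares of promoters with a match were per promoter and not matched for CpG, so they do not measure an excess among the members.

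Other genes of the Polycomb system were taken from lists, and 0 of their genes passed in edgeR or limma in any of the 4 comparisons. DESeq2 called 1 of them, the Y-linked demethylase gene Uty, in KO against HET and in HET against WT. Its calls among all genes tested were 3.19% and 0.857% in these comparisons. PRC1, the complex that places ubiquitin on histone H2A, had 20 genes, all found and led by Phc2 at a mean of 149.8 TPM. Their median log2 fold change was 0.01 for KO against WT, -0.03 for KO against both controls, -0.13 for KO against HET and 0.13 for HET against WT, with 0 at an unadjusted p under 0.05. Of the other PRC2 partners, 4 of 5 were found (Phf1, Epop, Lcor and Lcorl), at means of up to 9.32 TPM. Lcor, which binds PRC2 through one of its proteins, had an unadjusted p under 0.05 in KO against both controls (log2 fold change 0.50, SE 0.187, edgeR adjusted p = 0.744) and in KO against HET (log2 fold change 0.65, SE 0.240, edgeR adjusted p = 0.425), the only gene of this list to do so. The medians of the list were -0.08, -0.01, 0.32 and -0.41 in the order KO against WT, KO against both controls, KO against HET and HET against WT.

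Enzymes that undo Polycomb marks were also described. Kdm6a, which removes the methyl mark of PRC2 and lies on the X chromosome, was at 23.2 and 25.8 TPM in WT, 34.4 and 58.5 TPM in HET and 8.68 to 45.8 TPM in KO. Its highest values, in both HET and in KO replicates 3 and 4, were all in libraries with Ddx3y under 5 CPM, and KO replicate 6, also under it, was at 22.3 TPM. HET over WT gave a log2 fold change of 0.97 (SE 0.472, edgeR adjusted p = 0.793). Kdm6b stayed under 1 TPM in all 10 libraries. The 3 demethylase genes had medians of -0.34, -0.28, -0.01 and -0.33 in the same order of comparisons, and the H2A deubiquitinase genes, 7 of 8 tested and led by Bap1 at a mean of 76.7 TPM, had medians of -0.12, -0.07, 0.03 and 0.00. Of these, Asxl1 had an unadjusted p under 0.05 in KO against HET (log2 fold change -0.54, SE 0.189, edgeR adjusted p = 0.404).

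Developmental genes that PRC2 is known to silence were mostly near 0. Of 15 developmental Polycomb targets, such as Hox genes and the transcription factor genes Gata6 and Sox17, 9 were at 0 in all 10 libraries and 13 stayed under 1 TPM in each. A count of 0 allows up to 3 counts per library by counting error. The most abundant was Pax6 at 0.341 to 2.27 TPM, and the list summed to 1.19 to 4.83 TPM. Only 2 of the 15 passed the filter on low counts, with medians of 0.32, 0.60, 1.16 and -0.84 and 0 at an unadjusted p under 0.05 in edgeR. The 6 genes that EZH2 is known to repress in germinal center B cells, which hold back division or lead to plasma cells, summed to 27.8 and 28.5 TPM in WT, 23.5 and 19.7 TPM in HET and 17.1 to 34.3 TPM in KO, led by Irf4 at a mean of 10.9 TPM. The cell cycle inhibitor gene Cdkn1a was at 6.23 and 4.34 TPM in WT and 2.22 to 9.50 TPM in KO, and Prdm1, which drives plasma cell fate, at 4.49 and 4.91 TPM in WT and 1.96 to 7.68 TPM in KO. KO over WT gave 0.23 for Cdkn1a (SE 0.639) and 0.30 for Prdm1 (SE 0.558), each with an edgeR adjusted p of 0.999. The medians of the 6 were -0.28, -0.05, 0.47 and -0.71, with 0 at an unadjusted p under 0.05. Prdm1 and Irf4 are also on the plasma cell list, whose medians were 0.09, 0.47, 0.82 and -0.71 in the same order. The 95% interval of KO over WT ran from -1.18 to 1.65 for Cdkn1a and from -0.93 to 1.54 for Prdm1, so that a 2-fold difference of Cdkn1a in either direction, and a 2-fold higher Prdm1 in KO, lie within what these libraries allow.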

How the data were processed

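RNA of sorted NP-binding germinal center B cells from 10 mice (2 WT, 2 HET, 6 KO) was read by SMART-Seq v4 and paired-end sequencing. The authors made the deposited estimated counts per transcript with Salmon 0.9.1 on the protein-coding transcripts of Gencode vM17. The deposited TPM values, per the file headers, come from the same Salmon run and are scaled to transcript length. Estimated counts of 64019 transcripts were summed to 22380 genes and rounded for the tests. Each library held 26612431 to 41059082 counts, and members had 552 to 24814 counts per library. edgeR 4.0.16 (TMM, filterByExpr, quasi-likelihood test, adjusted p under 0.1) was run under R 4.3.3, on the WT and KO libraries for KO against WT, on all with WT and HET pooled for KO against both controls, and on all with 3 genotype terms for KO against HET and HET against WT. DESeq2 1.42.0 and limma 3.58.1 were alternatives, beside other filters, scalings, a replicate block and single libraries left out (each library of the groups compared, and for HET against WT also KO replicate 6). Scripts used Python 3.11.15, numpy 2.4.6, pandas 2.3.3, matplotlib 3.10.9 and Biopython 1.88, and were tested on simulated data. The p-values measure spread between mice. Named genes are the members, Zbtb38, genes of lists written down by symbol (other PRC2 partners, PRC1, H3K27 demethylases, H2A deubiquitinase complex, EZH2-repressed genes, developmental Polycomb targets, cell cycle and E2F, germinal center B cell, naive B cell, plasma cell, T cell, myeloid, erythroid and Y-linked) and the 6 genes nearest to Ezh2. Hnrnpll lies outside this rule and was chosen after its values were seen. A further gene of the germinal center B cell list is not reported here. Members and lists were chosen with earlier results of these data known. Gene positions are those of a Gencode vM21 annotation, a later release than the vM17 of the counts, and promoters are from RefSeq on GRCm38.p6.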

Additional observations from a re-analysis of the deposited data

Results flagged for a closer look

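Single libraries far from the rest of their group were looked for in 56 groups of values, where chance alone flags about 1 in 20, or 2.8, and 6 were found. Ezh2 in KO replicate 5 was at 222 CPM, with the other KO libraries at 178 to 189.5 CPM. Jarid2 in HET replicate 1 was at 37.3 CPM, with the other 3 control libraries at 57.8 to 61.6 CPM. KO replicate 6 was far below the other KO libraries for Mtf2 (163 CPM against 278 to 317 CPM) and for Aebp2 (16.6 CPM against 35.3 to 44.8 CPM). The summed level of the developmental Polycomb targets in KO replicate 2 was 4.83 TPM, with the others at 1.45 to 2.67 TPM. The summed level of the myeloid list in KO replicate 4 was 825 TPM, with the others at 60.5 to 232 TPM. The causes were not tested.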

How the results depend on the processing

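Of 660 log2 fold changes of members under alternatives, 618 kept direction and side of the threshold, 41 turned direction and 1 passed (Rbbp4, HET against WT, only the libraries of these groups: 0.37, edgeR adjusted p = 0.0911). Those that turned started between -0.15 and 0.18 and none passed. Jarid2 in KO against WT stayed between -0.60 and -0.41, and Suz12 in KO against HET between -0.41 and -0.26. The causes of the changes below were not tested. Aebp2 had the lowest count of any member, 552 in KO replicate 6.

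KO against WT: limma on log2(TPM + 1) gave Ezh1 -0.12, Eed -0.03, Rbbp7 -0.04 and Mtf2 -0.06, and on log2(TPM + 0.1) Ezh1 -0.13, Eed -0.03, Rbbp7 -0.04 and Mtf2 -0.06, where the median of all genes also moved, to -0.11 and -0.16. Length-scaled counts gave Phf19 0.11. Only libraries with Ddx3y above 5 CPM, chosen after seeing the data, gave Suz12 0.01 and Phf19 0.04. Leaving out single libraries gave Ezh2 -0.06 to 0.24, Ezh1 -0.06 to 0.11, Suz12 -0.14 to 0.11, Mtf2 -0.02 to 0.14 and Phf19 -0.16 to 0.02. KO against both controls: limma gave Ezh1 -0.03 and Rbbp4 -0.07 on log2(TPM + 1), and Ezh1 -0.04 and Rbbp4 -0.07 on log2(TPM + 0.1), with a median of all genes of -0.11 in the latter. Length-scaled counts gave Ezh2 0.00. Leaving out single libraries gave Ezh2 -0.15 to 0.02, Eed -0.07 to 0.07, Rbbp4 -0.01 to 0.14 and Rbbp7 -0.09 to 0.03. In KO against HET it gave Ezh1 -0.01 to 0.39 and Jarid2 -0.37 to 0.27, and in HET against WT Ezh1 -0.37 to 0.04 and Aebp2 -0.06 to 0.16.

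Genes called in KO against WT, 1 in edgeR, were 6 by DESeq2, 0 and 3 by limma with 1 and 0.1 added, 2 with all 10 libraries in one fit, 0 with only libraries above 5 CPM of Ddx3y and 0 to 2 without single libraries. With length-scaled counts the single call was higher in KO, and the edgeR call was lower. In KO against both controls, 1 in edgeR, they were 18 by DESeq2, 0 by limma with either addend, 0 with length-scaled counts and 1 to 2 without single libraries. In KO against HET, 1 in edgeR, they were 458 by DESeq2, 2 without a filter (median of all genes 0.11), 0 with length-scaled counts, 0 with only these groups, 0 with only libraries under 5 CPM of Ddx3y and 0 to 5 without single libraries. In HET against WT, 1 in edgeR, they were 123 by DESeq2, 523 with only these groups and 0 without any 1 WT or HET library, and 16 without KO replicate 6, a choice made after seeing the data. Where a setting called 1 gene, that gene need not be the same as in edgeR. For HET against WT the edgeR call was lower in HET, and the single calls with length-scaled counts and with limma on log2(TPM + 1) were higher. For KO against HET the edgeR call was higher in KO, and the single call of limma on log2(TPM + 1) was lower. The ratio of Ezh2 to Ezh1, 7.51 in WT, 10.4 in HET and 8.71 in KO by TPM, was 4.01, 5.46 and 4.46 by CPM, and 11.5, 5.80 and 6.51 by the transcripts with the highest mean over all libraries, which in WT are not the most abundant of Ezh1.

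Replicate numbers do not pair the samples: deviations of same-numbered libraries correlated at -0.01 to 0.13. A replicate block gave 6, 0, 4 and 66 genes called in KO against WT, KO against both controls, KO against HET and HET against WT, with Eed at 0.10 in KO against both controls and Rbbp4 at 0.00 in KO against HET.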
